A study of Homo sapiens with 9 samples.

Results

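The mRNAs of 28 proteins of the small (40S) subunit of the cytosolic ribosome, RPS24 among them, were followed in MHCC97H cells depleted of the large-subunit protein RPL6. The members were taken by gene symbol from a list, as protein-coding rows of a table of 60683 genes, and each was found in exactly 1 row. The list was chosen with earlier results of these data known, and it does not hold every small-subunit protein. MHCC97H is an established line from human hepatocellular carcinoma (HCC) that readily metastasises in mice. Poly-A RNA was sequenced from cells carrying 1 of 2 lentiviral short hairpins against RPL6 (shRPL6-1 or shRPL6-2, labelled RPL6 knockdown) or a control hairpin (shCont, labelled WT), with 3 libraries per group and 9 in all. Per the labels and the study's methods, all 3 groups carried a lentiviral hairpin and the cells had been selected with puromycin. Whether each library had its own culture is not stated, and p-values therefore rest on the variation among libraries, part of which may be technical.

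The small subunit binds the mRNA and reads its codons, while the large subunit joins the amino acids. Its proteins are assembled with the 18S ribosomal RNA in the nucleolus and are needed in equal numbers. Most ribosomal protein mRNAs begin with a terminal oligopyrimidine (TOP) tract, a C at the cap followed by a run of C and U, through which the mTORC1 kinase and the LARP1 protein control their translation and stability. Ribosomal proteins made without a partner are usually degraded, and inherited loss of 1 copy of RPS19, RPS24 or several other members causes Diamond-Blackfan anaemia.

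The strands listed for the hairpins are shown first because they define the groups and because their seeds were looked up in the members' transcripts. The strand complementary to RPL6 is written 5′ to 3′ with T for U and without its overhang, and bases 2 to 8, the seed, are in capitals.
shRPL6-1: tTTGCGAAgtttaaccacc
shRPL6-2: tAATAAGCcactagccagc
The study's list gives them as short duplexes under the hairpin names; the full expressed hairpin was not analysed here, and if it is cut at another base its seed, and each count of seed letters, would differ. The shRPL6-1 target lay at chr12:112408243-112408261 and the shRPL6-2 target at chr12:112406304-112406322 (GRCh38, minus strand), each in the coding sequence of the RPL6-201 transcript. No transcript of a member held either 19-base target in full.

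The letters that pair with the shRPL6-1 seed, TTCGCAA, occurred in transcripts of 2 members, RPS24 and RPS25. They stood in 12 of the 19 annotated RPS24 transcripts, at chr10:78040666-78040672 (GRCh38, plus strand), in the 3′ UTR of the protein-coding ones. There 10 of the 19 bases of the RPL6 target matched, the 7 seed-pairing letters included. The RPS25 site also matched at 10 of 19 bases, and RPS25 was not lower with shRPL6-1 (log2 fold change 0.35). The RPS24 stretch is shown with the seed-pairing letters in capitals, under the RPL6 target written the same way.
RPL6 target: ggtggttaaacTTCGCAAa
RPS24: actgtggatttTTCGCAAg
Among tested genes with annotated transcripts, 5.21% held TTCGCAA on the transcript strand. The letters that pair with the shRPL6-2 seed, GCTTATT, occurred in 8 members (RPS7, RPS10, RPS15, RPS15A, RPS20, RPS26, RPS27A and RPS29) and in 22.8% of tested genes. At these sites 8 (RPS7) to 13 (RPS10) of the 19 bases of the shRPL6-2 target matched. A match of letters is a description, and its part in any difference given here was not tested.

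The starts of the genes are shown because the TOP tract is the feature that most of these mRNAs share. RefSeq promoters (GRCh38.p14) matched 25 of the 28 members by symbol, in 28 annotated starts. A tract was scored where the first base was C and at least 4 more C or T followed on the transcribed strand. It was present at 19 of the 28 starts (67.9%), in 19 genes, against 4.07% of all 35116 promoters in the table. RPS2, RPS15A and RPS20 had no entry. Each line gives 25 bases, from 10 before the annotated start, with the tract in capitals.
RPS24: aatcgtggttCTCTTTTCCTCCTTg
RPS12: cggatgaggcCTCTTTCCCTgccgc
RPS13: ctctcgctctCCTTTCgttgcctga
RPS27: cgctttcgctCCTTTCCggcggtga
FAU: tcgcttcttcCTCTTTCTCgactcc
RPS15: aggcgcggaccaaagcgatctcttc
RPS26: acataacctcgattttcttccgcca
The RPS24 window is chr10:78033853-78033877 (plus strand), RPS12 chr6:132814559-132814583 (plus strand), RPS13 chr11:17077653-17077677 (minus strand) and RPS27 chr1:153990752-153990776 (plus strand). The FAU window is chr11:65122120-65122144 (minus strand), RPS15 chr19:1438386-1438410 (plus strand) and RPS26 chr12:56041908-56041932 (plus strand). Tracts ran from 6 to 14 bases, and RPS24 had the longest. RPS4X, RPS7, RPS15, RPS26, RPS28 and RPS29 had none at the annotated start.

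The libraries held 13638468 to 16149480 counts. RPL6 had 13.6, 12.9 and 15.8 CPM (counts scaled to a common library size and composition) in shRPL6-1 libraries and 12.3, 11.7 and 21.4 CPM in shRPL6-2 libraries, against 499.5, 518 and 478 CPM in shCont libraries. RPL6 was low in all 6 libraries labelled with the knockdown (log2 fold changes -5.14 and -5.04). Of 13 hepatocyte markers, ALB had 0 counts in all 9 libraries, while KRT8, KRT18 and HNF4A were detected in each, and the sum, almost all keratin, was 2247 to 2785 CPM by library total in shRPL6-1, 1958 to 2919.7 in shRPL6-2 and 1576 to 2512 in shCont libraries. Of 10 fibroblast and endothelial markers, KDR was at 0 throughout and 7 or 8 had counts per library, and their sum was 92.2 to 96.2 CPM, by library total, in shRPL6-1, 78.2 to 89.7 in shRPL6-2 and 119 to 145 in shCont libraries. With shRPL6-2, 1 of the 5 fibroblast and endothelial markers tested was called by edgeR, the endothelial cadherin CDH5 (lower, -1.03, adjusted p = 0.00748). Of the 3 hepatocyte markers tested, 1 was called, KRT18 (higher, 0.67, adjusted p = 0.0417). In that comparison 27.9% of all genes tested were called. Of 7 leukocyte markers, CD3E and MS4A1 were at 0 in every library, and 2 or 3 had counts per library, with sums of 8.30 to 26.5, 9.68 to 18.0 and 8.05 to 22.9 CPM in shRPL6-1, shRPL6-2 and shCont libraries. The part of these markers in the results was not tested. The third shCont library stood apart from the other 2: over genes, its counts differed from theirs by a chi-square of 58.6 per degree of freedom, against 9.22 between the first and second. Other pairs within a group lay between 13.9 and 51.7, the highest being the second shRPL6-2 library against the third. The counts of members called, and the genes below whose call turns on the third shCont library, are also given without it.

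With shRPL6-1, 5 small-subunit genes rose and 1, RPS24, fell. RPS12, RPS13, RPS15, RPS15A and RPS27 were 1.52- to 1.78-fold higher than in shCont libraries, while RPS24 fell by 1.82 on the log2 scale. Among all 16146 genes tested, 8.51% were called, 4.44% higher and 4.07% lower, at the same threshold, a Benjamini-Hochberg adjusted p under 0.05 from the quasi-likelihood test of edgeR. The median log2 fold change of the 28 members was 0.57 (all genes tested -0.01), and 26 of them lay above 0, against 49.1% of all genes. At an unadjusted p under 0.05 there were 20 members (29.2% of all genes). The 22 members that did not pass the threshold had log2 fold changes between -0.27 (RPS28) and 0.97 (RPS9). The count depended on single libraries: it was 21 (20 higher and RPS24 lower) without the third shCont library, 1 without the first or second shCont library or any 1 shRPL6-1 library, and 2 without the first shRPL6-2 library. RPS24 was the call that remained with any library left out. The share of all genes called was not counted with a library left out, in this comparison or the next.

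With shRPL6-2, 19 of the 28 genes rose and 0 fell, by edgeR. The rises were 1.37- to 2.40-fold, from RPS4X to RPSA, with adjusted p between 0.00377 and 0.0337. Over all genes tested, 27.9% were called, 13.3% higher and 14.6% lower. The median log2 fold change of the members was 0.86 (all genes tested -0.03), and 27 of 28 lay above 0, against 48.6% of all genes. At an unadjusted p under 0.05 there were 22 members, all higher (42.1% of all genes in either direction). DESeq2 called 20 members higher and 0 lower, and of the 16146 genes tested it called 2590 higher and 2721 lower. The 9 that did not pass were RPS3, RPS3A, RPS6, RPS7, RPS9, RPS24, RPS25, RPS27A and RPS28, with log2 fold changes between -0.07 (RPS24) and 0.93 (RPS9). The count was 7 without the second shCont library, 8 without the first, 10 without the second shRPL6-2 library and 21 without the third shCont library. RPS12, RPS13, RPS14, RPS15, RPS27 and FAU passed with any 1 library left out, and each of the other 13 lost its call without at least 1 library. Both comparisons share the shCont libraries, so their members are not independent of each other.

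**Figure D1:**
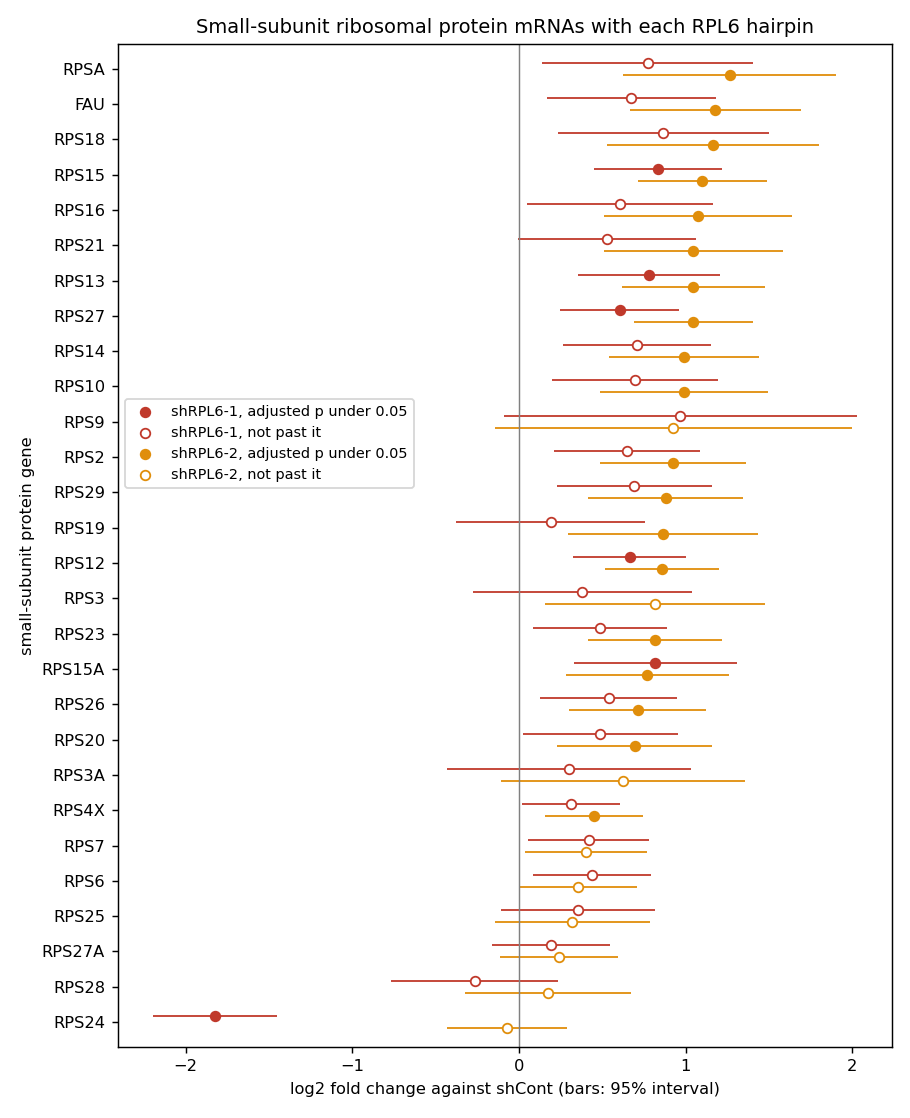
Log2 fold change of each of the 28 genes against shCont, with shRPL6-1 (red) above shRPL6-2 (orange) in each row; bars are 95% intervals of the fit and filled points have an adjusted p under 0.05. Nearly all points lie right of 0, while RPS24 lies at -1.82 with shRPL6-1 and at -0.07 with shRPL6-2.

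RPS24 encodes an essential small-subunit protein needed for maturation of the 18S RNA, and it is among the genes mutated in Diamond-Blackfan anaemia. The gene (ENSG00000138326, chr10:78033760-78056813, GRCh38) had 3617, 2292 and 3208 counts in shRPL6-1 libraries and 9988, 8016 and 9001 counts in shRPL6-2 libraries, against 10538, 10963 and 11321 counts in shCont libraries. Every shRPL6-1 library lay below every library of the other 2 groups (15.2% of all genes lay so below shCont), and the shRPL6-2 and shCont libraries overlapped once scaled to CPM. The mean was 200.2 ± 38.3 CPM in shRPL6-1 and 675 ± 20.4 CPM in shRPL6-2, against 709 ± 51.3 CPM in shCont (SD, n = 3 each). By CPM, RPS24 was number 22 of the 28 genes in shRPL6-1 and number 17 in shRPL6-2, against number 5 in shCont.

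The log2 fold change of RPS24 with shRPL6-1 was -1.82 (SE 0.17, adjusted p = 0.000732), and its p-value ranked number 8 of the 16146 genes. Over all alternatives it lay between -1.92 and -1.65, with an adjusted p of at most 0.0152. With shRPL6-2 the log2 fold change was -0.07 (SE 0.16, 95% interval -0.43 to 0.29, adjusted p = 0.766), and it turned to 0.29 after a correction for transcript GC content. The interval leaves room for modest change in either direction. RPS24P8, a processed pseudogene of RPS24 with few reads, had 45, 26 and 33 counts in shRPL6-1, 158, 131 and 101 in shRPL6-2 and 126, 136 and 167 in shCont libraries. Whether these reads came from RPS24 itself was not tested, so their low in the shRPL6-1 libraries is not a separate observation. Adding the pseudogene rows left the RPS24 values at -1.83 and -0.07.

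The hairpins were then set against each other, which tests the difference between their effects. RPS24 was 3.37-fold higher with shRPL6-2 than with shRPL6-1 (log2 difference 1.75, SE 0.17, adjusted p = 0.00213), and its p-value ranked number 4 of all genes. In this comparison 0.384% of all genes were called, 0.0681% higher and 0.316% lower with shRPL6-2 (11 and 51 genes). RPS24 was the 1 member called, and it was called with each library left out. At an unadjusted p under 0.05 there were 3 members (10.9% of all genes), RPS24, RPS19 and RPS27. Every shRPL6-2 library lay above every shRPL6-1 library for 8 members (9.8% of all genes), and 23 of 28 log2 differences were above 0 (48.9% of all genes), with 8 members whose sign turned under some alternative. The other 27 members had log2 differences between -0.08 (RPS6) and 0.68 (RPS19), with a median of 0.27 (all genes tested -0.01), and their smallest adjusted p was 0.358. RPS19, the gene most often mutated in Diamond-Blackfan anaemia, differed by 0.68 (SE 0.26, 95% interval 0.11 to 1.25) and RPS27 by 0.44 (SE 0.16, 95% interval 0.09 to 0.79), both short of the threshold. A p that misses the threshold does not show that the hairpins acted alike on these genes.

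**Figure D2:**
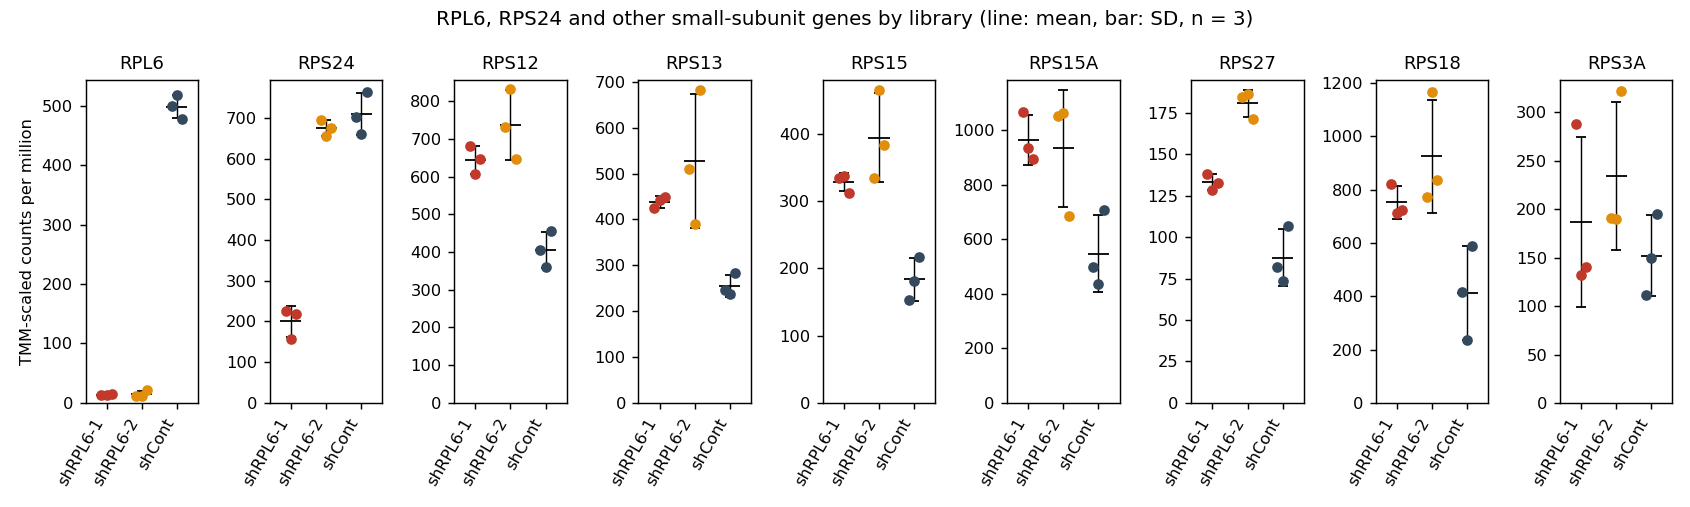
CPM of RPL6, RPS24 and 7 other small-subunit genes in each library, by group; lines are means and bars SD (n = 3), and each panel has its own axis from 0. RPS24 sits at 156 to 226 CPM in shRPL6-1 libraries, at 655 to 695 in shRPL6-2 and at 662 to 763 in shCont, whereas RPS12, RPS13, RPS15 and RPS27 sit higher with both hairpins than in shCont.

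Of the members, 5 passed as higher with both hairpins and 0 as lower, against 3.68% and 3.41% of all genes tested. RPS15, a protein needed for export of the assembling subunit from the nucleus, had 334, 337 and 312 CPM in shRPL6-1 and 334, 464 and 384 CPM in shRPL6-2, against 153, 181 and 217 CPM in shCont libraries. All knockdown libraries lay above all shCont libraries, by 0.84 with shRPL6-1 (SE 0.18, adjusted p = 0.0228) and 1.10 with shRPL6-2 (log2, SE 0.18, adjusted p = 0.0043). RPS27, a zinc-finger protein of the subunit, had 138, 129 and 133 CPM in shRPL6-1 and 185, 186 and 171 CPM in shRPL6-2, against 82.2, 73.5 and 107 CPM in shCont libraries. It too did not overlap with shCont, at log2 fold changes of 0.60 (SE 0.16, adjusted p = 0.0453) and 1.04 (SE 0.16, adjusted p = 0.00377).

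RPS13, which lies at the face that meets the large subunit, had 424, 442 and 448 CPM in shRPL6-1 and 509, 390.5 and 682 CPM in shRPL6-2, against 246, 237 and 282 CPM in shCont libraries. Its shRPL6-2 libraries were the more spread, yet all 3 were above every shCont library (log2 fold changes 0.78 and 1.05, adjusted p = 0.0372 and 0.00644). RPS12 had 681, 606 and 646 CPM in shRPL6-1 and 730.5, 833 and 647 CPM in shRPL6-2, against 405, 359 and 455 CPM in shCont libraries. Its log2 fold changes were 0.67 and 0.86 (adjusted p = 0.0302 and 0.00589). RPS15A had 1068, 934 and 894 CPM in shRPL6-1 and 1052, 1064 and 686 CPM in shRPL6-2, against 500.04, 436 and 707 CPM in shCont libraries. The third shRPL6-2 library of RPS15A lay below the third shCont library, so here the groups overlapped (log2 fold changes 0.82 and 0.77, adjusted p = 0.0472 and 0.0281). Of these 5, RPS12, RPS13, RPS15 and RPS27 held with shRPL6-2 whichever library was left out, and none held so with shRPL6-1.

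The members with the highest mean change over both hairpins were RPSA and RPS18. RPSA, also known as the laminin receptor, had 1211, 939 and 1002 CPM in shRPL6-1 and 1456, 1890 and 1085 CPM in shRPL6-2, against 464, 461 and 921 CPM in shCont libraries. The third shCont library was close to the shRPL6-1 range, and the first and second were near one another and far below. RPSA passed with shRPL6-2 (log2 fold change 1.26, SE 0.29, adjusted p = 0.0125) and not with shRPL6-1 (0.77, SE 0.29, adjusted p = 0.109). RPS18 had 823, 712 and 723 CPM in shRPL6-1 and 773, 1166 and 837 CPM in shRPL6-2, against 417, 234 and 589 CPM in shCont libraries. With all 9 libraries it passed with shRPL6-2 (1.16, adjusted p = 0.0166) and not with shRPL6-1 (0.86, adjusted p = 0.0812). Without the third shCont library both passed with shRPL6-1 as well (RPSA 1.19, adjusted p = 0.00566, and RPS18 1.21, adjusted p = 0.00902). Without the second shCont library neither did (RPSA 0.59, edgeR adjusted p = 0.324, and RPS18, adjusted p = 0.221). RPSA was also at 0.59 (adjusted p = 0.324) without the first. With shRPL6-2 RPSA had an adjusted p of 0.0551 without the second shCont library. The difference between hairpins did not pass for RPSA or RPS18.

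FAU, which encodes RPS30 fused to a ubiquitin-like protein, had 661, 600.1 and 583 CPM in shRPL6-1 and 835, 1073 and 706 CPM in shRPL6-2, against 314, 310.2 and 531 CPM in shCont libraries. No knockdown library of FAU fell within the shCont range (log2 fold change 0.67, adjusted p = 0.0879 with shRPL6-1; 1.18, adjusted p = 0.00775 with shRPL6-2). RPS14, the gene lost in the anaemia of the 5q- syndrome, had log2 fold changes of 0.71 (adjusted p = 0.054) and 0.99 (adjusted p = 0.00873). Without the third shCont library FAU and RPS14 passed with shRPL6-1 too (0.98, adjusted p = 0.00514, and 0.96, adjusted p = 0.00363). Without the second they did not (edgeR adjusted p = 0.284 and 0.197). RPS19 was at 0.19 with shRPL6-1 (adjusted p = 0.654) and 0.87 with shRPL6-2 (adjusted p = 0.0316), and its second shRPL6-2 library (1615 CPM) was far above the other 2 (both 806 CPM). Without that library RPS19 was at 0.44 with shRPL6-2 (adjusted p = 0.103). Of the members that are ubiquitinated when ribosomes collide, RPS10 and RPS20 rose with shRPL6-2 (log2 fold changes 0.99 and 0.69), while RPS3 was at 0.82 (adjusted p = 0.0621). Without the third shCont library all 3 passed with both hairpins, RPS3 at 0.81 with shRPL6-1 (adjusted p = 0.0286) and 1.25 with shRPL6-2 (adjusted p = 0.00296). Without the second, RPS10 and RPS20 missed the threshold with shRPL6-2 (edgeR adjusted p = 0.0537 and 0.126). RPS3 was then at 0.19 with shRPL6-1 (adjusted p = 0.777). RPS23, at the decoding centre, RPS2, at the mRNA entry side, RPS16, RPS21, RPS26, RPS29 and RPS4X also rose with shRPL6-2, by 0.45 (RPS4X) to 1.07 (RPS16).

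RPS6, the S6 kinase substrate, stood at 0.44 with shRPL6-1 and 0.36 with shRPL6-2 (log2), and neither passed (adjusted p = 0.106 and 0.117). After the GC correction it stood at 0.67 and 0.79 and passed with both (adjusted p = 0.0127 and 0.00426). RPS27A, which encodes ubiquitin fused to a small-subunit protein, stood at 0.19 and 0.24 and did not pass in any run. RPS3A and RPS7 stood at 0.30 and 0.42 with shRPL6-1 and at 0.63 and 0.40 with shRPL6-2. RPS3A had a single high library in each knockdown group, the first of shRPL6-1 (288 CPM against 133 and 140.4) and the third of shRPL6-2 (323 CPM against 191 and 189.5), and 111 to 195 CPM in shCont.

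Library by library, 18 members in shRPL6-1 and 19 in shRPL6-2 had every library above every shCont library. Over all genes tested the shares with such separation were 16.4% and 18.9%. With shRPL6-2, 0 members had every library below every shCont library, against 19.7% of all genes. Against the first and second shCont libraries alone the number was 24 with each hairpin. The share of all genes was not counted for that easier separation, so the shares above do not apply to it. The third shCont library had the highest value of the 3 shCont libraries for 26 of the 28 members, at a median of 1.40 times the mean of the other 2. Leaving it out, the median log2 fold change of the members was 0.77 with shRPL6-1 and 1.01 with shRPL6-2. In that fit 20 and 21 members were higher, and 20 were called in the same direction with both. The share of all genes called in that fit was not counted.

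In sum over the 28 genes, the members took 1.76%, 1.63% and 1.59% of all counts in shRPL6-1 and 1.97%, 2.12% and 1.77% in shRPL6-2, against 1.17%, 1.14% and 1.42% in shCont libraries. The groups did not overlap, although the third shCont library was nearest to the knockdown libraries. With the pseudogene rows added the means were 2.44% ± 0.14 in shRPL6-1 and 2.91% ± 0.31 in shRPL6-2, against 1.75% ± 0.26 in shCont (SD, n = 3 each). The 13 protein-coding genes of the mitochondrial genome took 4.42% and 4.27% of counts in shRPL6-1 and shRPL6-2, against 6.08% in shCont, and outside them the members' share was 1.73% and 2.04%, against 1.33%. A share of counts cannot tell more RNA of these genes from less RNA of others.

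**Figure D3:**
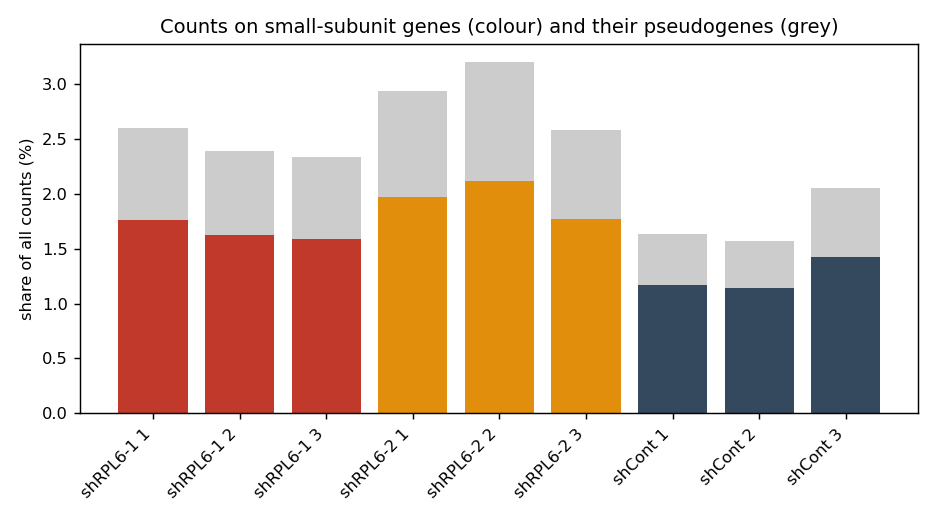
Share of all counts (%) on the 28 member rows (coloured) and on the pseudogene rows named for them (grey, stacked) in each of the 9 libraries. The coloured part is 1.59% to 1.76% in shRPL6-1, 1.77% to 2.12% in shRPL6-2 and 1.14% to 1.42% in shCont libraries.

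The libraries also differed in how gene levels followed the GC content of the transcripts, which is set here beside the members' level in each. Spearman's rho between a gene's deviation from its mean over libraries and its GC content was 0.28, -0.11 and -0.02 in shRPL6-1 libraries and 0.34, 0.59 and 0.10 in shRPL6-2 libraries, against -0.54, -0.53 and 0.25 in shCont libraries. The members' median deviation was 0.18, 0.08 and 0.05 in shRPL6-1 and 0.32, 0.54 and 0.22 in shRPL6-2, against -0.62, -0.68 and -0.12 in shCont (log2). The first and second shCont libraries were lowest and the second shRPL6-2 library highest in both, while the third shCont library had a positive rho and a member level below that of every knockdown library. The members' median GC content was 50.6%, close to 50.3% for all genes tested. Their median transcript length was 650 bases, below the 1012 bases of all genes tested. Spearman's rho with transcript length was -0.08, 0.02 and -0.01 in shRPL6-1 libraries. It was -0.14, -0.16 and -0.05 in shRPL6-2 libraries, against 0.14, 0.15 and 0.04 in shCont libraries. The part of length in the members' level was not tested. With the GC correction, 19 members passed with shRPL6-2, of which 17 had passed before (RPS2 and RPS19 were lost, RPS6 and RPS7 gained), and 9 rose with shRPL6-1. RPS24, at 44.1% GC, remained lower with shRPL6-1 under that correction (log2 fold change -1.65, adjusted p = 0.00197).

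**Figure D4:**
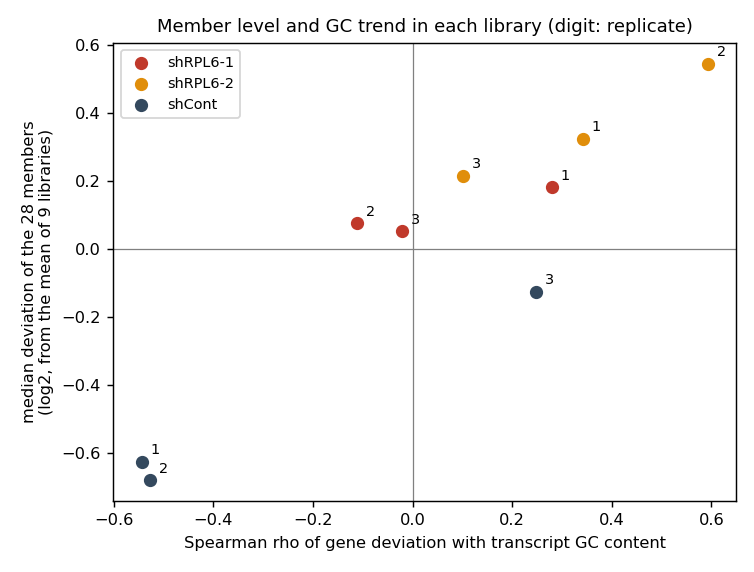
Each point is 1 library (digit: replicate number): Spearman's rho of gene deviation with transcript GC content on the x axis, and the median deviation of the 28 members from their mean over 9 libraries (log2) on the y axis. The first and second shCont libraries lie at the lower left (-0.62 and -0.68), and the third lies at a positive rho yet below 0 in member level (-0.12).

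Where the reads of a member were placed varied widely. The 425 pseudogene rows named for the members took 31.7% of the counts on members and pseudogenes together, and 7 members had over 40% of theirs there: RPS28 (99.3%), RPS3A (75.5%), RPS2 (74.4%), RPS27A (54.0%), RPSA (53.0%), RPS7 (49.5%) and RPS26 (46.5%). For these genes the row of the gene and those of its near-identical copies cannot be told apart with certainty, and the fold changes of the row alone are uncertain to that extent. RPS28 had 81, 54 and 52 counts in shRPL6-1 and 82, 73 and 67 in shRPL6-2, against 64, 84 and 81 in shCont libraries. RPS28P7 had 11494, 10688 and 9568 in shRPL6-1 and 13224, 12911 and 11297 in shRPL6-2, against 5968, 6455 and 8748 in shCont libraries. The RPS28 row alone gave -0.27 and 0.17 on the log2 scale, and with its pseudogenes added it gave 0.60 (adjusted p = 0.0653) and 1.03 (adjusted p = 0.0058). RPS9 and RPS25 had 268 and 815 counts over all 9 libraries and few on pseudogene rows (5 and 4 counts), so their values are of low depth. RPS9 stood at 0.97 and 0.93 with shRPL6-1 and shRPL6-2, and without the third shCont library at 1.76 (adjusted p = 0.0148) and 1.72 (adjusted p = 0.0103). Without the second shCont library RPS9 passed with neither (edgeR adjusted p = 0.511 and 0.431). At the other end, RPS14, RPS16 and RPS21 and 10 more had under 1% of their counts on pseudogenes.

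**Figure D5:**
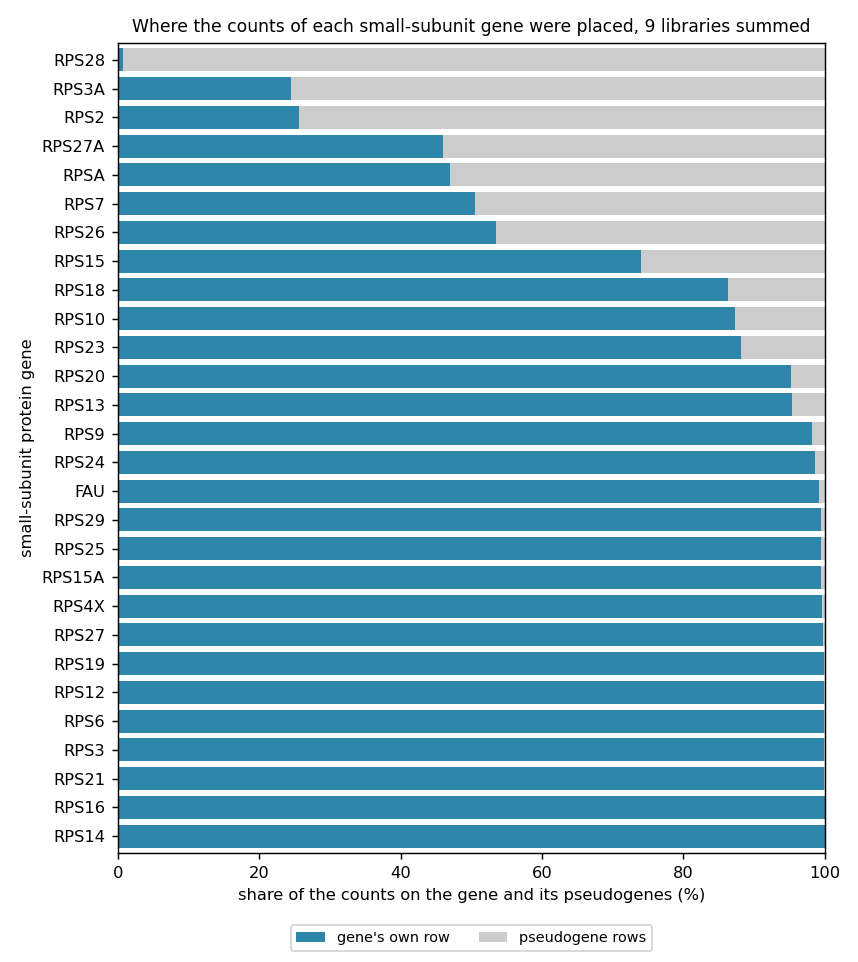
For each member, the share (%) of the counts on its own row (blue) and on the rows of pseudogenes named for it (grey), summed over 9 libraries. RPS28 has 99.3% on pseudogenes and RPS24 1.33%.

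Per length, the deposited FPKM values put RPS12 first in shCont (566), followed by RPS6 (270), RPS21 (260) and RPS4X (234), with RPS12 2.10 times the next. RPS6, RPS21 and RPS4X were closer than their spread in shCont (SD 45.1, 76.1 and 4.98). RPS24 was number 24 in shRPL6-1 (16.3 FPKM) and number 21 in shRPL6-2 (52.1 FPKM), against number 17 in shCont (61.0 FPKM). The lowest in shCont were RPS25 (1.46), RPS28 (1.31) and RPS9 (0.17). The gene length implied by counts and FPKM was 756 bases for RPS12 and 12260 bases for RPS24, far above the median length of its annotated transcripts (656 bases), so FPKM levels set between members depend on that length.

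Genes around the small subunit were counted from lists that were also chosen with earlier results of these data known. Of all genes tested, 8.51% were called with shRPL6-1 (4.44% higher and 4.07% lower). With shRPL6-2 27.9% were called (13.3% higher and 14.6% lower). Of 46 large-subunit protein genes other than RPL6, shRPL6-1 raised 10 and shRPL6-2 raised 33 (median log2 fold changes 0.53 and 0.87); 0 fell by edgeR, at an unadjusted p under 0.05 or by DESeq2. With both hairpins 10 were called higher and 0 lower, against 3.68% and 3.41% of all genes tested. Among these 10, RPL21, RPL11, RPL24 and RPL28 lay at 0.66 (RPL24) to 1.05 (RPL21) with shRPL6-1. With shRPL6-2 they lay at 0.92 (RPL24) to 1.24 (RPL28). Of 31 assembly factors of the small subunit, 3 rose with shRPL6-1 and 10 with shRPL6-2 (medians 0.20 and 0.09). That is 9.68% and 32.3% of the list, against 4.44% and 13.3% of all genes called higher. By edgeR 0 fell, by DESeq2 0, and at an unadjusted p under 0.05 0 and 1. The 3 that rose with both were PDCD11 (0.71 and 0.54) and EMG1 (0.75 and 0.74), which act in early 18S RNA processing, and NOB1 (0.59 and 0.74), the nuclease that makes its final cut. Of 18 other TOP mRNAs of the translation machinery, 3 rose with shRPL6-1 and 4 with shRPL6-2 (medians 0.06 and -0.03), while by edgeR 0 fell, and at an unadjusted p under 0.05 and by DESeq2 0 and 1. Those that rose with both were GAS5 (1.16 and 1.39), a TOP RNA that does not encode a protein, EIF3F (1.40 and 1.48) and EEF2 (0.72 and 0.77).

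Of 23 genes that handle small-subunit proteins or regulate TOP mRNAs, 2 fell with shRPL6-1 and 0 rose by edgeR (4 at an unadjusted p under 0.05 and 2 by DESeq2), and with shRPL6-2 there were 6 higher and 3 lower. In either direction 8.7% and 39.1% of the list were called, against 8.51% and 27.9% of all genes. With shRPL6-1 the calls were all lower, against 4.07% of all genes called lower. EIF4EBP2, a repressor of cap-dependent translation, fell with both hairpins (-1.26 and -0.98, adjusted p = 0.00711 and 0.00593). RPS6KB1, the kinase that phosphorylates RPS6, fell too (-0.78 and -0.89, adjusted p = 0.0491 and 0.0154). Of the 13 mitochondrial genes, 0 passed with shRPL6-1 in edgeR (5 lower at an unadjusted p under 0.05 and 3 by DESeq2), and 3 fell with shRPL6-2, MT-ND4 (-0.68, adjusted p = 0.0212) and MT-CO1 (-0.56, adjusted p = 0.0301) among them.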

How the data were processed

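Per the labels and submitters' processing notes, poly-A libraries of MHCC97H cells were prepared with a stranded kit, sequenced in paired ends and processed with CASAVA 1.8, HISAT2, StringTie and edgeR on GRCh38; the annotation, the counting program and its strand setting are, in the sources used here, not given. The authors deposited raw read counts and FPKM values for 60683 genes, of which 32426 had any count. The deposited columns are named NC (control) and Si (knockdown) and were matched to the samples by group and replicate number. The counts were tested with edgeR 4.0.16 (R 4.3.3, limma 3.58.1): all 9 libraries, TMM scaling, filterByExpr (16146 genes, 99.8% of counts), a quasi-likelihood test with Benjamini-Hochberg adjustment over all tested genes, and a threshold of 0.05. All 28 members passed the filter. CPM are TMM-scaled; the SE is the log2 fold change over the square root of F. FPKM as deposited by the authors were used only to set levels per length.

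The members and gene lists were chosen with earlier results of these data known. Named genes are all members and, per list, up to 4 genes called with both hairpins by smallest larger adjusted p, otherwise the 2 with the smallest adjusted p; values per library are given for RPS24, the 2 members with the highest and the 2 with the lowest mean change, and for others picked after their values were seen. AROS was not matched in the list of TOP regulators. Depth limits RPS9, RPS25 and RPS28. Alternatives were RLE, upper-quartile and library-total scaling, DESeq2 1.42.0, no filter, only the 2 groups compared, GC and length corrections (median GC and length of GENCODE transcripts), pseudogene counts added, a replicate block and leaving out each library.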

Additional observations from a re-analysis of the deposited data

Results flagged for a closer look

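RPS24 was the member whose effect differed between the hairpins by a test of the difference itself: its log2 fold change was -0.07 with shRPL6-2 and -1.82 with shRPL6-1, a difference of 1.75 (SE 0.17, edgeR quasi-likelihood adjusted p = 0.00213, every shRPL6-2 library above every shRPL6-1 library). With the GC correction the difference was 1.94, and over all alternatives it lay between 1.61 and 1.96 with an adjusted p of at most 0.0249.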

How the results depend on the processing

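The number of members called with shRPL6-1 was 6. It was 12 in DESeq2, which called 1287 of all genes higher and 1276 lower, against 717 and 657 in edgeR. It was 10 with the GC correction, 3 without the filter on low counts and 1 with the replicate block. Leaving out 1 library gave 1 to 21. With shRPL6-2 it was 19 and stayed within 1.5 times that under the other settings; leaving out 1 library gave 7 to 21. Calls in the same direction with both hairpins numbered 5, and were 11 in DESeq2, 9 with the GC correction, 8 with GC and length, 3 with only the 2 groups compared, 2 without the filter and 0 with the replicate block; leaving out 1 library gave 0 to 20. Outside the edgeR fit of all 9 libraries and DESeq2, the share of all genes called was not counted. The cause of these moves was not tested. Between the hairpins RPS24 was called in every run. Deviations of same-numbered libraries from their group means had correlations of -0.51 to 0.27, and those of differently numbered libraries -0.38 to 0.50. Deviations within a group of 3 must sum to 0, so these correlations cannot exclude a batch shared by number. The labels do not say that the numbers pair libraries, and the block result is given here only. Signs turned for members that had not passed: RPS3A with shRPL6-1 was -0.15 without the first shRPL6-1 library (-0.15 to 0.53 over the libraries left out), and RPS19 with shRPL6-1 was -0.043 with GC and length. RPS28 with pseudogene counts added was 0.60 with shRPL6-1, and with shRPL6-2 it was -0.12 with GC, -0.14 with GC and length, and -0.12 with the replicate block and GC. RPS24 with shRPL6-2 was 0.29, 0.21 and 0.31 under those 3 settings. Between the hairpins the sign turned under some alternative for RPS3A, RPS6, RPS7, RPS9, RPS15A, RPS25, RPS27A and RPS29, none of which passed. Scaling by library totals moved the median of all genes with shRPL6-2 to -0.19 (from -0.03), with the members' median at 0.70.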

Other observations

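Transcripts that hold the letters paired by the shRPL6-1 seed were counted over all genes, a question added after RPS24 had been seen. Of 834 tested genes with TTCGCAA in a transcript, 67 fell with shRPL6-1 (8.03%, against 3.89% of the 15162 tested genes without it), and with shRPL6-2, whose seed differs, 18.5% fell (against 14.5%). Their median log2 fold changes were -0.14 and -0.18. Of the 3642 genes with GCTTATT, which pairs with the shRPL6-2 seed, 28.5% fell with shRPL6-2 (10.6% of genes without it) and 5.68% with shRPL6-1 (3.64%). In the test of one hairpin against the other, shRPL6-2 had the larger value for 3 called genes with TTCGCAA, RPS24 among them. That is 0.36%, against 0.0528% of genes without the letters. It had the smaller value for 4 called genes with TTCGCAA (0.48%, against 0.31%). The median difference was -0.009 with TTCGCAA and -0.01 without it. Of genes with GCTTATT, 0 were called with the larger value in shRPL6-2 (0.089% of genes without it). The smaller value was called for 35 (0.961%, against 0.13%). The median difference was -0.19 with GCTTATT and 0.04 without it. Transcript length was not matched in these counts, and no test was made.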
